A study of Mus musculus with 4 samples.

Results

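Fibroblast growth factor (FGF) signalling was examined gene by gene in a comparison of open chromatin between wild-type (WT) and *Smyd1-KO* mouse hearts at embryonic day 9.5 (E9.5). The genes were taken by symbol: every protein-coding gene of the GENCODE M21 annotation named *Fgf* plus a number, *Fgfr1* to *Fgfr4*, *Spry1* to *Spry4*, or *Spred1* to *Spred3*. This rule uses no peak value, but it was chosen with earlier results of these data known. The rule gave 33 genes, 22 of them FGF genes, 4 FGF receptor genes and 7 Sprouty or Spred genes. *Spry3* lies on an unplaced scaffold of the assembly, where neither peak list has an entry, so it was not assessed. The other 32 genes were assessed among 21938 protein-coding genes on the assembled chromosomes.

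The assay was ATAC-seq, in which Tn5 transposase cuts DNA that nucleosomes leave exposed. There were 4 libraries, 2 of WT and 2 of *Smyd1-KO* hearts, each prepared from 4 pooled hearts and 40000 viable cells. *Smyd1-KO* embryos carry no functional copy of *Smyd1*, which encodes a muscle-specific enzyme that methylates histones. The allele was maintained in *Smyd1*+/- mice, it is null in every cell of the embryo, and embryos of both sexes were used. Whole hearts were dissociated, so a change in the mix of cell types and a change within 1 cell type cannot be told apart. The deposited data are a list of 25745 peaks with at least 2-fold more signal in *Smyd1-KO* hearts and a list of 106 peaks with at least 2-fold more signal in WT hearts. Each peak has 1 score, read here as a tag count over that 149 bp interval in the pooled libraries of the genotype after scaling. *Smyd1-KO* scores went in steps of 0.5 and WT scores in steps of 0.1, so they are not whole tags, and no source used here gives the scaling. Those of *Smyd1-KO*-enriched peaks ran from 24.5 to 18591 with a median of 180.5. There is no value per library, and therefore no replicate error and no test of any difference below, and a difference between genotypes cannot be told apart from a difference in depth or quality between the pooled libraries. The lists hold no RNA measurement with which to check the tissue. Of the marker genes, 7 of 8 for cardiomyocytes had a peak of the *Smyd1-KO* list no more than 3 kb from a transcription start site (TSS), with none at *Nkx2-5*, as did 2 of 7 for endothelium and endocardium, 3 of 5 for epicardium and 1 of 6 for blood, against 51.2% of all protein-coding genes. Their part in the results below was not tested.

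FGFs are secreted ligands that bind receptor tyrosine kinases at the cell surface, usually together with heparan sulfate, and pass the signal through adaptor proteins to RAS, RAF, MEK and ERK. Endocrine FGFs travel in the blood and need Klotho proteins as co-receptors, whereas the FGF homologous factors stay inside the cell and act on ion channels. Sprouty and Spred proteins are inhibitors that dampen RAS and ERK activity, and several of them are themselves induced by FGF signalling, which makes them feedback regulators. In the early heart, FGF signals from endoderm, mesoderm and epicardium support proliferation of cardiac progenitors and growth of the myocardium and outflow tract.

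The DNA of the strongest peak near the 2 highest-scoring printable genes of each class is shown so that the base composition of the regions discussed below can be seen directly. Sequences are from the RefSeq copy of the mm10 assembly (GRCm38.p6), 5′ to 3′ on the strand of the gene, without the bases of untranslated regions, and capitals mark a match to a GC box (GGGCGG, or CCGCCC on the other strand) or to the ETS core (CCGGAA, or TTCCGG). The intervals are chr11:69803854-69804002 for *Fgf11*, chr11:33148458-33148606 for *Fgf18*, chr7:130266264-130266385 for *Fgfr2*, chr8:25518666-25518758 for *Fgfr1*, chr14:105897202-105897350 for *Spry2* and chr2:117120664-117120812 for *Spred1*. The strongest peak of *Fgf20* lay wholly in an untranslated region of another gene and is not shown.
Fgf11: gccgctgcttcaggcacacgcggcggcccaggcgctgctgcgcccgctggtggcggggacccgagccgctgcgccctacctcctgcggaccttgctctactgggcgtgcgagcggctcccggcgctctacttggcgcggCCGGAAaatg
Fgf18: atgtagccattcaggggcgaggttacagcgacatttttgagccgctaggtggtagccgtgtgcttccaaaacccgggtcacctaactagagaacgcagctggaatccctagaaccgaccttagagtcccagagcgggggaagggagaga
Fgfr2: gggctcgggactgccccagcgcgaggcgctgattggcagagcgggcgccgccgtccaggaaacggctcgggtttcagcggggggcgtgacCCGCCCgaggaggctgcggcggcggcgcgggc
Fgfr1: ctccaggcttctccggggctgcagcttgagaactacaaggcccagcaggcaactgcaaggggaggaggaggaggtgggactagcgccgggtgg
Spry2: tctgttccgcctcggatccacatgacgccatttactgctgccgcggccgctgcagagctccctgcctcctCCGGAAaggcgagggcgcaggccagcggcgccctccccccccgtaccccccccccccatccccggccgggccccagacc
Spred1: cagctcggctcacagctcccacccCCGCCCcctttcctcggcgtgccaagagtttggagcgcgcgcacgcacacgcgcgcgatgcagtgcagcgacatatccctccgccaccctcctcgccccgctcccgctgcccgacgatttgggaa

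These 6 stretches differed in composition. The *Fgf18* interval, upstream of the gene, had a GC content of 55.7% and 8 CpG dinucleotides in 149 bases. The *Spred1* interval had 69.8% GC and 19 CpGs in the same length, and the *Fgfr2* interval 78.7% GC and 19 CpGs in 122 bases. The *Fgfr1* interval had 65.6% GC but only 3 CpGs in its 93 printed bases. Both the *Spry2* and the *Fgf11* interval had 74.5% GC and an ETS core, with 14 and 20 CpGs respectively.

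FGF genes carried a *Smyd1-KO*-enriched peak near a TSS about as often as other genes, and receptor and feedback genes did so in most cases. Counting peaks up to 3 kb from a TSS, 11 of 22 FGF genes (50%, exact Clopper-Pearson 95% interval 28.2 to 71.8%), 3 of 4 receptor genes (75%, interval 19.4 to 99.4%) and 6 of 6 Sprouty and Spred genes (100%, interval 54.1 to 100%) had such a peak. The background was 51.2%, that is 11236 of the 21938 protein-coding genes. The intervals treat genes as independent draws and cover counting error only. The share of FGF genes was thus near the background. With only 4 receptor genes and 6 Sprouty and Spred genes the intervals were wide, and no difference from the background was tested. All 4 receptor genes and 5 of the 6 Sprouty and Spred genes had a CpG-rich TSS, as defined below. Of all protein-coding genes with such a TSS, 78.5% had a peak. Receptors and feedback genes together had a peak in 9 of 10 cases (90%, interval 55.5 to 99.7%). No gene of any of the 3 classes had a WT-enriched peak within 3 kb, against a background of 0.0228% (5 genes), and the WT-enriched peak nearest to any of them was 1201.7 kb away, from *Fgf22*.

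**Figure D1:**
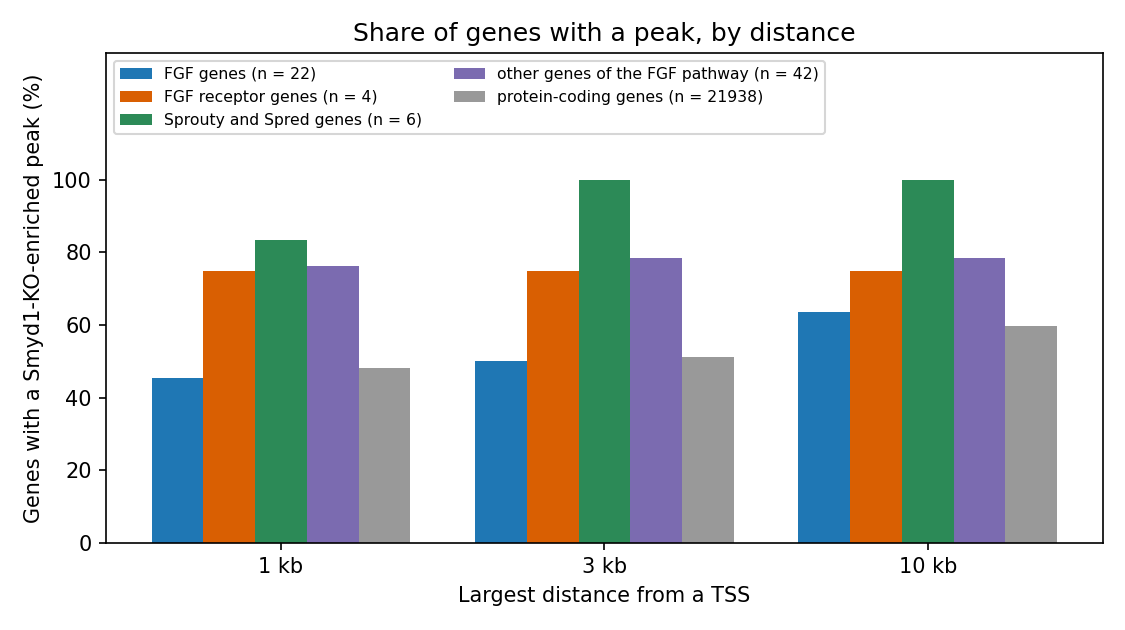
Share of genes (%) with a *Smyd1-KO*-enriched peak at most 1, 3 or 10 kb from a TSS, for FGF genes, FGF receptor genes, Sprouty and Spred genes, 42 other genes of the pathway and all protein-coding genes. Each bar is a count over genes of 1 pooled list and carries no error. FGF genes stay close to all protein-coding genes at each distance, and the other 3 classes are higher.

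FGF genes had the lowest share of the 3 classes at each distance. Within 1 kb, 10 FGF genes, 3 receptor genes and 5 Sprouty and Spred genes had a peak against a background of 48.1%, and within 10 kb, 14, 3 and 6 did against 59.6%. The farthest peak counted within 3 kb was a second one of *Spry2*, 2034 bp upstream, followed by 1 of *Fgf11* at 1997 bp. The nearest peaks left outside were at 4241 bp (*Spred3*), 4519 bp (*Fgf8*) and 4897 bp (*Fgf17*), so no gene changed its status for a small shift of the limit. When only peaks at or above the median score of the list counted, 8 FGF genes, 3 receptor genes and 6 Sprouty and Spred genes had one, against a background of 45.4%.

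The classes also differed in how many peaks they held and where these lay. Several peaks within 3 kb were found at 3 of 22 FGF genes (13.6%), close to the background of 11.8% of genes with at least 2, and at 3 of 4 receptor genes and 4 of 6 Sprouty and Spred genes. The peak covered a TSS itself at no FGF gene, at 3 receptor genes and at 3 Sprouty and Spred genes, against a background of 27.8%, so that by this measure the share of receptor genes (75%) was above that of Sprouty and Spred genes (50%). Of the 15 peaks at FGF genes, 8 lay upstream and 7 downstream of the nearest TSS of the gene, at a median of 472 bp. The 9 receptor peaks lay at a median of 49 bp from a TSS, and the 10 Sprouty and Spred peaks at 472.5 bp. With TSSs of protein-coding transcripts only, a choice made after seeing the data, these medians were 472 bp for FGF genes, 296 bp for receptor genes and 593.5 bp for Sprouty and Spred genes. The median number of annotated TSSs per gene was 14 for receptor genes, 2 for FGF genes and 2.5 for Sprouty and Spred genes. Its part in these distances and in the share of genes with a covered TSS was not tested.

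**Figure D2:**
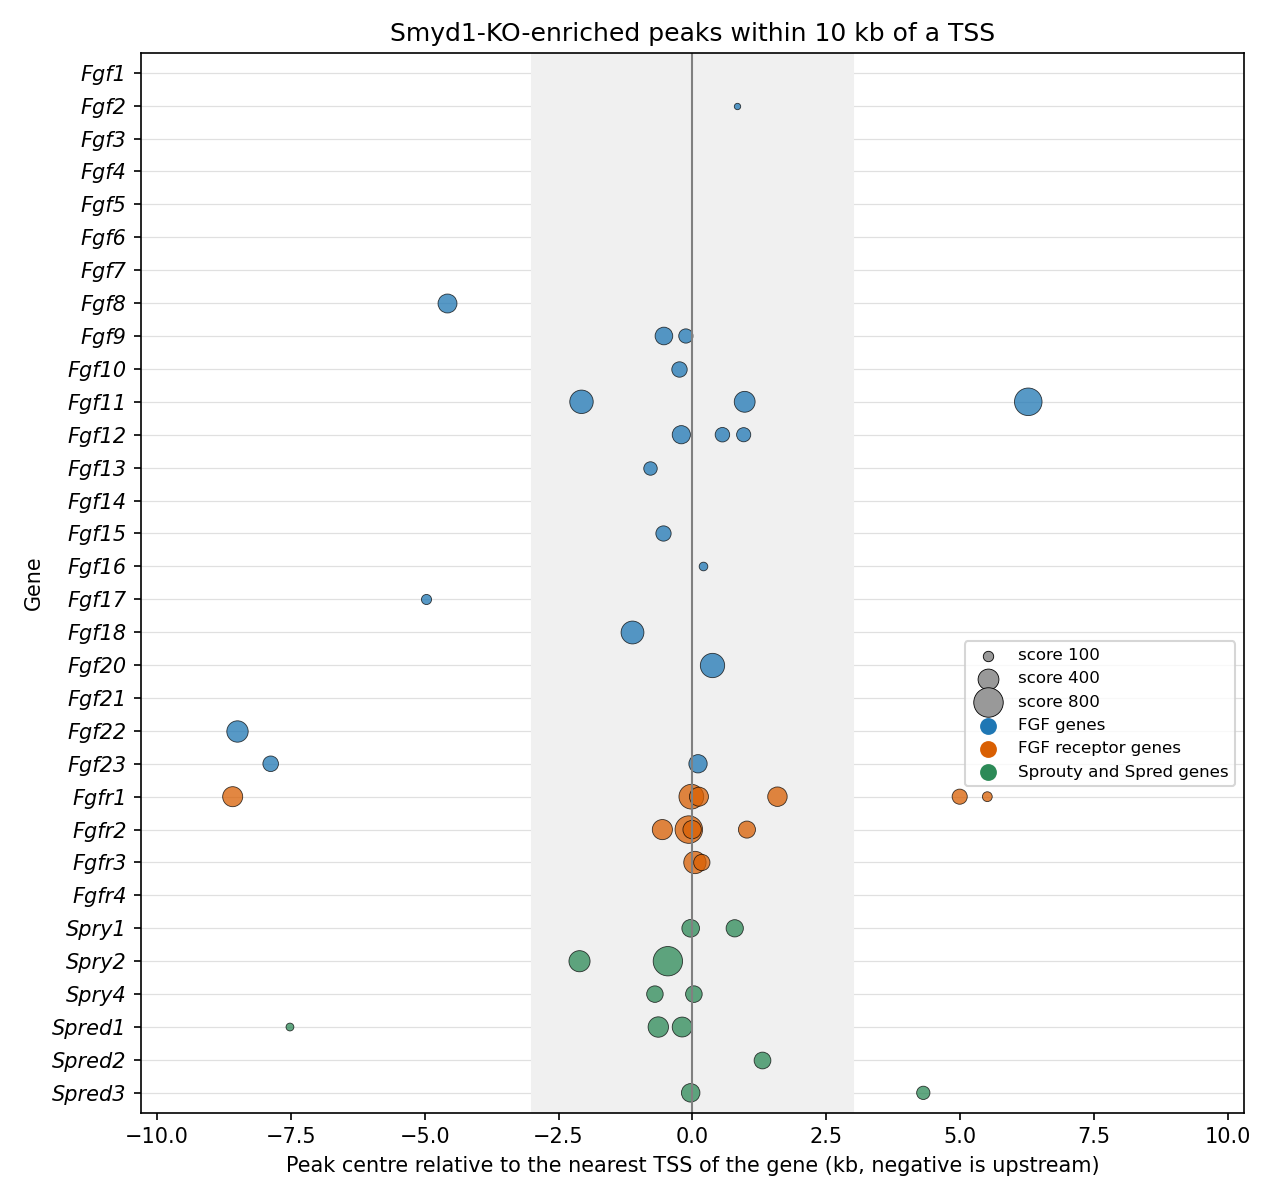
Position of each peak of the *Smyd1-KO* list that lies at most 10 kb from a TSS, as the distance of its centre from the nearest TSS of the gene (kb, negative is upstream), 1 row per gene. The area of a point is proportional to the peak score, and the shaded band spans 3 kb to either side. Of the 9 receptor peaks within 3 kb 4 cover a TSS, while no FGF peak covers one and 8 FGF genes have no point at all.

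Scores of the strongest peak were low at FGF genes, whose median lay near the lower quartile of all genes with a peak. Over the 11 FGF genes with a peak the median score was 287, with a range of 37.5 to 544.5, and the 3 receptor genes had a median of 564.5 (459 to 698). The 6 Sprouty and Spred genes had a median of 301.25 (254 to 796). Over all 11236 genes with a peak the median was 460.5, with quartiles at 292 and 693 and a range of 31.5 to 2050. By this measure 3 FGF genes, 2 receptor genes and 1 feedback gene lay above the median of all genes with a peak, and 8, 1 and 5 lay below it. The strongest peaks of feedback genes thus had a median close to that of FGF genes, whereas the summed scores of all peaks within 3 kb had medians of 533.2 and 309.0 respectively, and of 1248.5 for receptor genes. The receptor median is the sum of *Fgfr1*, between 704.5 for *Fgfr3* and 1651 for *Fgfr2*. The *Fgfr2* sum includes peaks of 311.5 and 373 at the promoter of another gene, *Ctbp2*, so the receptor median depends on them.

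**Figure D3:**
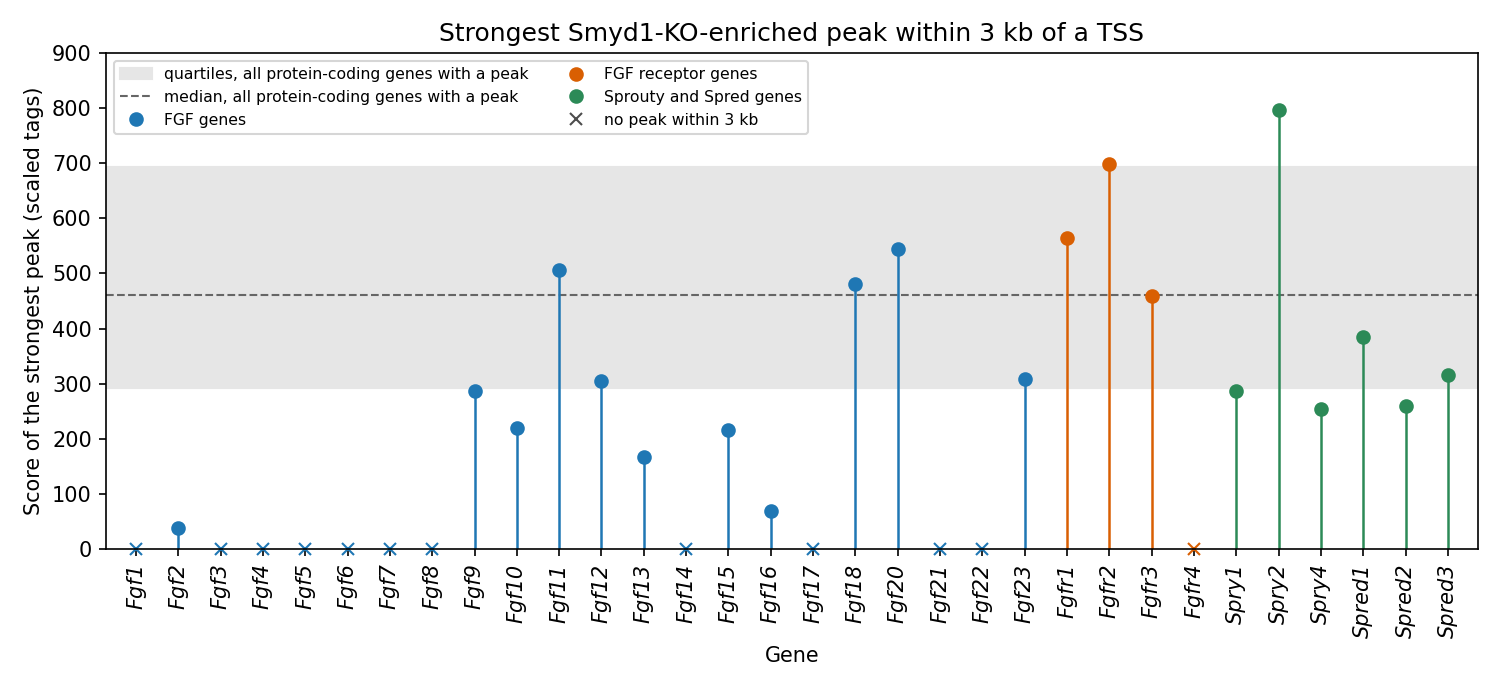
Score (scaled tags) of the strongest *Smyd1-KO*-enriched peak at most 3 kb from a TSS for each of the 32 genes, with crosses for genes without one. The dashed line and grey band are the median (460.5) and quartiles (292 and 693) over all protein-coding genes with a peak. *Spry2* and *Fgfr2* lie above the band, and 6 of the 11 FGF genes with a peak lie below it.

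Among the 22 FGF genes, *Fgf20*, *Fgf11* and *Fgf18* had the highest scores, and the strongest peak of *Fgf20* and of *Fgf11* was nearer to a TSS of another gene. *Fgf20*, a member of the FGF9 subfamily, scored 544.5 at chr8:40307881-40308029. This peak lay 302 bp downstream of the more upstream of the 2 annotated TSSs of *Fgf20* and 20.9 kb from the other one. It covered the TSS of the microRNA gene *Mir7666* and overlapped the 5′ UTR of *Micu3*, which encodes a regulator of mitochondrial calcium uptake. *Fgf11*, an FGF homologous factor and so no secreted ligand, had a peak of 507 at 1997 bp upstream, in a coding exon of another gene and nearest to *Tmem102*. A second *Fgf11* peak with a score of 401 lay in its own intron, 904 bp downstream of the TSS (chr11:69800664-69800812), and brought its summed score to 908. *Fgf18*, an FGF8 subfamily ligand with roles in bone and lung, had 1 peak of 481 in intergenic DNA, 1058 bp upstream, with no nearer TSS of any gene.

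The FGF9 subfamily was the only FGF subfamily in which every gene had a peak within 3 kb, but its 3 scores were spread widely. The background was 51.2% of all protein-coding genes and 78.5% of those with a CpG-rich TSS, which all 3 genes had. For *Fgf20* the count rests on the peak described above, which was nearer to the TSS of another gene. *Fgf9*, which encodes an epicardial and endocardial mitogen of the myocardium, had 2 peaks with scores of 287 (chr14:58072081-58072229, 457 bp upstream of a TSS) and 188 (chr14:58076312-58076460, 47 bp upstream of another). *Fgf16*, which is also expressed in the developing heart, had 1 peak of 69 in its 5′ UTR at chrX:105764403-105764551, which placed it at percentile 1.8 of the genes with a peak. *Fgf20* stood at percentile 61.2.

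The FGF homologous factors had a peak at 3 of 4 genes. *Fgf12* had 3 peaks, each at a different TSS of the gene, with scores of 305.5 (chr16:28753200-28753348, 132 bp upstream), 194 (chr16:28564315-28564463, 488 bp downstream) and 184.5 (chr16:28445042-28445190, 885 bp downstream). *Fgf13* had 1 peak of 167.5 at chrX:59135161-59135309, 725 bp upstream of an internal TSS, whereas the most upstream TSS of the gene lay 347.1 kb from a peak. *Fgf14* had none, and the nearest was 65.5 kb away. Without these 4 intracellular proteins, 8 of 18 FGF genes (44.4%) had a peak, against 51.2% of all protein-coding genes, and their median score was 253.

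Endocrine FGFs are metabolic hormones. *Fgf23*, a regulator of phosphate, had a peak of 309 in its 5′ UTR, 32 bp downstream of its only TSS (chr6:127072934-127073082), although the observed to expected CpG ratio around that TSS was 0.18. *Fgf15*, a regulator of bile acid synthesis that is also expressed in the embryo, had a peak of 215.5 at chr7:144895911-144896059, 472 bp upstream. *Fgf21* had none within 10 kb, and the peak nearest to it, 26.1 kb away with a score of 657.5, was closest to *Bcat2*.

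In the FGF7 subfamily, whose ligands act from mesenchyme on epithelium, only *Fgf10* of 4 genes had a peak within 3 kb, against 51.2% of all protein-coding genes. *Fgf10*, a marker of second heart field progenitors, scored 219 (percentile 15.5) at chr13:118714375-118714523, 176 bp upstream of its protein-coding TSS. *Fgf7* and *Fgf22* lay 19.4 kb and 8.4 kb from a peak, the latter with a score of 421.5 and covering the TSS of *Polrmt*, the mitochondrial RNA polymerase gene. *Fgf3*, the fourth gene placed in this subfamily, lay 57.3 kb from one.

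The FGF8 subfamily includes *Fgf8*, which is required in the anterior heart field and outflow tract. *Fgf8* had no peak within 3 kb. The nearest one lay 4519 bp upstream with a score of 331.5 (chr19:45747434-45747582) and was closer to another gene, *Gm15491*. *Fgf17* had a peak of 95 at 4897 bp upstream. With *Fgf18*, all 3 genes of this subfamily thus had a peak within 10 kb but 1 of 3 had it within 3 kb. The shares over all protein-coding genes were 59.6% and 51.2%, and 3 genes are too few to set against them.

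The FGF4 subfamily had no peak within 3 kb at any of its 3 genes, against 51.2% of all protein-coding genes with one. The nearest lay 34.5 kb from *Fgf4*, 67.9 kb from *Fgf5* and 33.5 kb from *Fgf6*, genes best known for early embryonic growth, hair cycling and muscle regeneration in that order. In the FGF1 subfamily *Fgf1* had its nearest peak 12.2 kb away in one of its own introns, with a score of 204.5. *Fgf2*, which encodes basic FGF, a broad mitogen, counted only through a peak of 37.5, at percentile 0.1 of the genes with a peak. That peak (chr3:37405294-37405442) lay in the 3′ UTR of *Fgf2*, 753 bp downstream of the start of a retained-intron transcript, and the 3 most upstream protein-coding TSSs of *Fgf2* lay 35.8 to 36.3 kb from any peak.

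The receptor genes *Fgfr1*, *Fgfr2* and *Fgfr3* each had a peak on a TSS, and *Fgfr4* had none. *Fgfr2*, which encodes the receptor for FGF7 and FGF10 ligands in its epithelial form, scored 698 (percentile 75.5) at chr7:130266237-130266385, in the 5′ UTR and over several TSSs. A peak of 268.5 lay 946 bp downstream of a TSS at chr7:130265097-130265245. The other 2 of its 4 peaks, with scores of 311.5 and 373, lay at chr7:133123280-133123428 and chr7:133123836-133123984, where *Fgfr2* has 1 annotated transcript that starts at the promoter of *Ctbp2*, a transcriptional co-repressor gene. That transcript extends the annotated *Fgfr2* gene to chr7:130162451-133123350, so its 43 peaks inside the gene and its summed score of 1651 include those of other genes.

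*Fgfr1*, which encodes the receptor most widely used in mesoderm, scored 564.5 (percentile 63.4) at chr8:25518666-25518814, over several TSSs of protein-coding transcripts. It had 2 further peaks, of 349.5 at chr8:25515170-25515318 and of 334.5 at chr8:25519393-25519541, and 6 peaks within 10 kb in all. *Fgfr3*, best known as a brake on bone growth, scored 459 at chr5:33721648-33721796, over its TSS, and 245.5 at chr5:33722923-33723071. *Fgfr4*, which encodes the liver receptor for FGF15, lay 26.5 kb from the nearest peak, which had a score of 195. Receptor genes have many annotated TSSs, namely 18 for *Fgfr1*, 14 each for *Fgfr2* and *Fgfr3* and 3 for *Fgfr4*, against a median of 3 over all protein-coding genes. Of the 1848 genes with 10 or more TSSs 84.1% had a peak within 3 kb, and the part of this in the receptor count was not tested.

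All 6 feedback genes on assembled chromosomes had a peak. *Spry2*, which encodes an ERK-pathway inhibitor induced by FGF, had the highest score of all 32 genes, 796 (percentile 82.5), in intergenic DNA 383 bp upstream of its only TSS, at chr14:105897202-105897350. Its second peak scored 412 at chr14:105898853-105899001. *Spry1* had peaks of 286.5 over its TSS (chr3:37639842-37639990) and 274.5 in its 5′ UTR (chr3:37640798-37640946). *Spry4* had peaks of 254 over its only TSS (chr18:38601312-38601460) and 251.5 at 625 bp upstream (chr18:38602040-38602188), the latter nearer to the TSS of another gene, *AC133601.1*. All 3 Sprouty genes thus had 2 peaks, but *Spry1* and *Spry4* scored below the lower quartile of genes with a peak.

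Spred proteins bind neurofibromin and hold RAS inactive at the membrane. *Spred1* had adjacent peaks of 384 and 365.5 at 562 and 116 bp upstream (chr2:117120664-117120812 and chr2:117121110-117121258), with a summed score of 749.5. *Spred2* had 1 peak of 259 in an intron, 1220 bp downstream of a TSS (chr11:19925662-19925810), and it was the only feedback gene without a peak within 1 kb. *Spred3* had 1 peak of 316 over the TSS of a retained-intron transcript (chr7:29169798-29169946), 1151 bp from the TSS of its protein-coding transcript.

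CpG content at the TSS moved with these counts. Over all protein-coding genes 78.5% of those with a CpG-rich TSS had a peak within 3 kb and 22.6% of those without one, where CpG-rich means an observed to expected CpG ratio of at least 0.6 and at least 50% GC within 500 bp to either side. Among FGF genes 8 of 12 CpG-rich genes (66.7%) and 3 of 10 others (30%) had a peak. *Fgf2* is among these 8, but its peak lay near a TSS with a ratio of 0.23. Its TSS with the highest ratio, 0.75, lay 36.1 kb from any peak. All 4 receptor genes were CpG-rich, and their 3 of 4 (75%) lay slightly below the 78.5% of CpG-rich genes in all. Of the Sprouty and Spred genes 5 of 6 were CpG-rich, all 5 with a peak. CpG-rich genes without a peak were *Fgf3*, *Fgf4*, *Fgf5*, *Fgf8* and *Fgfr4*, with ratios of 0.79, 0.77, 0.76, 0.79 and 0.69. A peak without a CpG-rich TSS was found at *Fgf10*, *Fgf11*, *Fgf23* and *Spred3*, with ratios of 0.53, 0.51, 0.18 and 0.58. The share of CpG-rich genes was thus lower among FGF genes, 12 of 22, than in the other classes, and close to that of all protein-coding genes, 11236 of 21938. Its part in the difference between classes was not tested.

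**Figure D4:**
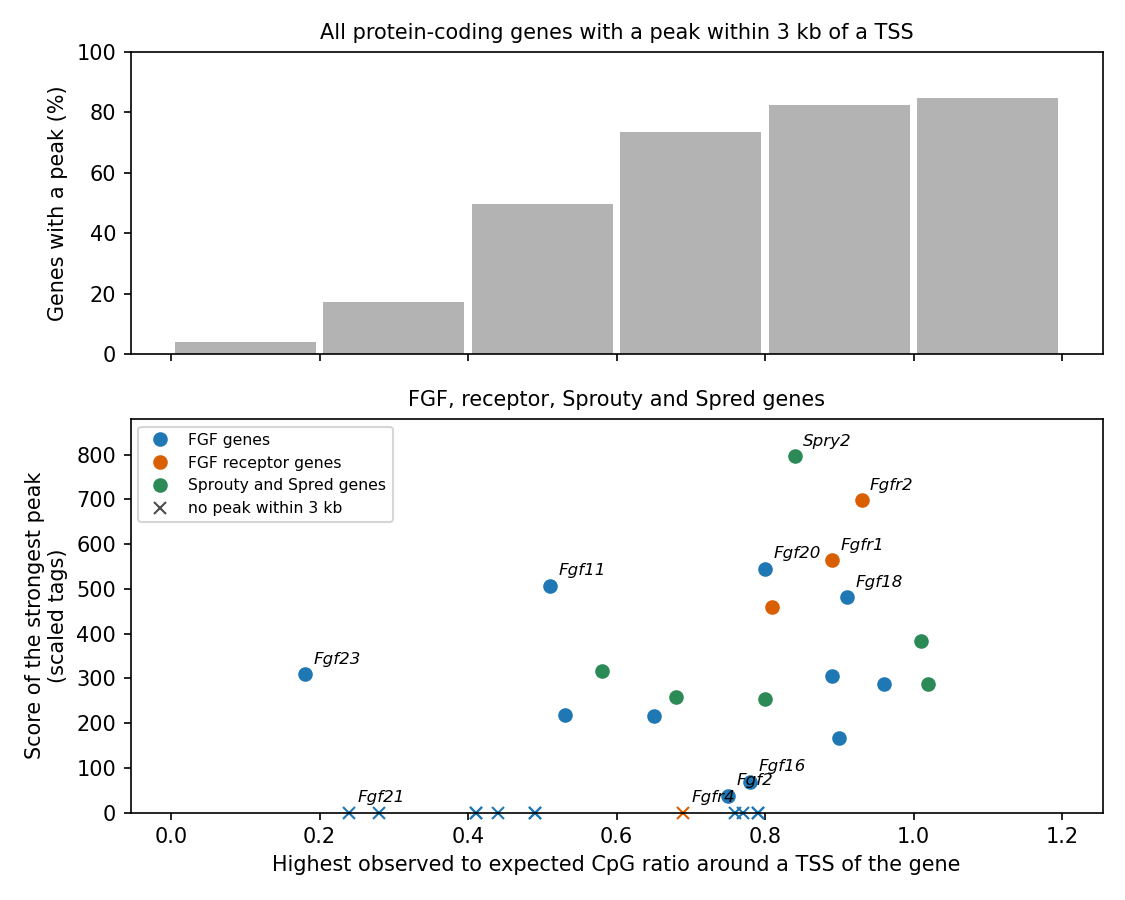
Upper panel, share of all protein-coding genes (%) with a *Smyd1-KO*-enriched peak within 3 kb, by the highest observed to expected CpG ratio around a TSS, which goes from 4.08% below 0.2 to 84.7% at 1.0 to 1.2. Lower panel, the score (scaled tags) of the strongest peak of each FGF, receptor, Sprouty and Spred gene against the same ratio, with crosses for genes without a peak. Genes without a peak are found at low ratios and again between 0.69 and 0.79.

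The sequences under the 34 peaks within 3 kb were rich in GC. Their median GC content was 69.1% and their median CpG ratio 0.81, compared with 57.7% and 0.42 over all 25745 peaks and with 65.1% and 0.74 over the 13986 peaks within 3 kb of any TSS. A GC box was found in 13 of the 34 (38.2%), against 46.9% of the 13986. An ETS core, the motif family of the FGF targets *Etv4* and *Etv5*, was found in 3 (8.82%) against 13.2%, namely in 1 peak of FGF genes and 2 of Sprouty and Spred genes. A TEAD core (GGAATG, both strands) was found in 2 (5.88%) against 6.59%, and a GATA core (AGATAA, both strands) in none against 3.68%. With 34 peaks these counts describe the sequences only, and a match is not a bound site. By position, 10 of the 34 lay in a 5′ UTR of the gene, 9 in an intron and 10 outside the gene, and 5 had the TSS of another gene nearer than that of the FGF, receptor or feedback gene.

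The other listed genes of the pathway had peaks more often than the FGF genes. This list was chosen with earlier results of these data known, and the difference was not tested. Of 42 other genes, 33 had a *Smyd1-KO*-enriched peak within 3 kb (78.6%) against the background of 51.2%, with a median score of 628 and a range of 98.5 to 1236.5, and 24 of the 33 lay above the median of all genes with a peak. Of these 42 genes 36 were CpG-rich, and 30 of the 36 had a peak (83.3%), against 78.5% of CpG-rich genes in all. The highest scores were those of *Etv5* (1236.5), an ETS factor induced by FGF, *Shc1* (1087.5), *Gab1* (1038) and *Frs3* (954.5), adaptors of receptor tyrosine kinases, and *Hs2st1* (915), a heparan sulfate sulfotransferase. Adaptors and signal relay genes had a peak in 16 of 19 cases (median score 718.5), heparan sulfate synthesis genes in 5 of 6 (703), transcriptional targets and other feedback genes in 8 of 9 (455) and co-receptors and binding proteins in 4 of 8 (535.5). Among the targets, *Dusp6*, which encodes an ERK phosphatase, scored 710.5, *Egr1* 786, *Etv4* 375 and *Il17rd*, which encodes the inhibitor SEF, 98.5. The 9 genes without a peak were the Klotho co-receptor genes *Kl* and *Klb*, the binding protein gene *Fgfbp1*, *Flrt1*, *Ndst1*, *Sos1*, *Ptpn11*, *Braf* and *Dusp5*.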

How the data were processed

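ATAC-seq libraries of E9.5 hearts were grouped by the genotype in their labels. Per the study's methods, the authors aligned reads to mm10 with BWA-MEM, called peaks with HOMER 4.10.3, kept differences of at least 2-fold and annotated them with ChIPseeker 1.20.0. The deposited score is a signal, read here as scaled tags in the peak in the combined libraries of a genotype. The pooling and the scale are inferred from the file layout and the values, and the handling of duplicates is not given in the sources used here. Sequencing was planned to 100000000 reads per sample, and the lists do not show the depth each library reached.

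Peaks were linked to genes by the distance from the nearer peak edge to any GENCODE M21 TSS (Python 3.11.15, pandas 2.3.3, pysam 0.24.0), and 13 mitochondrial genes were left out. Linking was tested on simulated peaks at known distances. Coordinates count from 1. Every gene of the rule was described, together with the 5 highest-scoring other pathway genes and all of those without a peak, and a few other targets chosen after their values were seen. The genes and lists were chosen with earlier results of these data known. Alternatives were other distances, TSS sets, score limits and links.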

Additional observations from a re-analysis of the deposited data

How the results depend on the processing

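Receptor genes, Sprouty and Spred genes and other pathway genes stayed above the background at 1 and 10 kb and with TSSs of protein-coding or basic transcripts only, but among CpG-rich genes the receptor genes, 75%, and FGF genes, 66.7%, lay below the 78.5% of all such genes. The share of FGF genes lay below the background at 1 kb and above it at 10 kb. Over the alternatives 56 values stayed close to the reported ones and 18 moved, where close means within 1.5 times for a count of genes and within a 95% counting interval of the reported value for a median score or a background share (only a yardstick for scores, which are scaled and not whole counts), so that small shifts of the background count as moved. Where only peaks that cover a TSS counted, 0 FGF genes, 3 Sprouty and Spred genes and 20 other pathway genes had one, the background was 27.8%, and no median over FGF genes could be had. The median score over FGF genes was 253.0 with peaks within 1 kb, with peaks nearest to a TSS of the gene, and without the FGF homologous factors. It was 296.2 with peaks within 10 kb and with TSSs of protein-coding or basic transcripts, and 307.2 with peaks at or above the list median. Summing all peaks within 3 kb gave medians of 1248.5 for receptor genes, 533.2 for Sprouty and Spred genes and 309.0 for FGF genes. The receptor value depends on *Fgfr2* peaks that lie at the promoter of *Ctbp2*. The background was 48.1% within 1 kb, 59.6% within 10 kb, 49.6% with TSSs of protein-coding transcripts, 49.2% with those of basic transcripts, 45.4% with peaks at or above the list median and 45.6% with peaks nearest to the gene. With background genes chosen after seeing the data it was 78.5% for CpG-rich genes, 22.6% for the others and 84.1% for genes with 10 or more TSSs.

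No paired analysis was possible because the deposited lists pool the libraries of a genotype and hold no value per replicate. For the same reason no library was left out in turn. The lists hold only peaks past the 2-fold limit, and the accessibility of genes without a listed peak was not measured here. With TSSs of protein-coding transcripts only, 10 FGF genes had a peak, since *Fgf2* was lost.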

Other observations

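Several of the genes are neighbours, so a peak can lie near more than 1 of them. *Fgf3* and *Fgf4* are 2.9 kb apart with no listed peak between them, and *Fgf4* and *Fgf15* are 31.3 kb apart with 1, the peak of 215.5 upstream of *Fgf15*. This single peak was the nearest one to all 3 genes. *Fgf6* and *Fgf23* are 44.7 kb apart with 1 peak between them, of 224 and nearest to *Fgf23*. *Fgf2* and *Spry1* are 229.8 kb apart with 2 peaks, and *Spry4* and *Fgf1* 237.3 kb apart with 4.

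Peaks inside genes but farther than 3 kb from a TSS were found in all 3 classes. *Fgf10* had 2 in introns, of 60.5 and 300.5, and the latter, 44.4 kb downstream of its protein-coding TSS and nearer to the TSS of *Gm16263*, exceeded the 219 of its promoter peak. *Fgf18* had 1 of 197.5 in an intron, and *Fgf1*, *Fgf12* and *Fgf13* had 2 each, with scores from 57 to 204.5. *Fgfr1* had 4 such peaks, with scores from 89.5 to 376.5, *Spred2* had 2, of 207 and 63, and *Spred3* had 1 of 163.5 in a coding exon. Those of *Fgfr2* include peaks of other genes and are not listed.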
